A study of Mus musculus with 8 samples.

Results

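Transcripts of Trp53, the gene of the transcription factor p53, and of 9 genes of its response were measured in wild-type (WT) and cancer cells from mouse small intestinal organoids that grew apart or together. The 10 genes were taken by symbol from a count table of 13420 genes, all 10 were found there, and 9 of them had enough reads to be tested beside 5264 genes in all. The tenth, Mdm2, had too few. Organoids are clusters of epithelial cells grown in a gel from tissue stem cells. WT organoids came from C57BL/6 mice with the mTmG reporter, which gives cells a red membrane. Cancer organoids came from C57BL/6 (F6) mice whose genotype the labels write as Villin-CreERT2Apcfl/flKrasG12D/WTTr53fl/R172H, and carried the fluorescent protein Dendra2. The Villin promoter places the inducible Cre recombinase in the intestinal epithelium. All cultures had the same medium with EGF, Noggin and R-spondin1. The 4 groups were WT cells from pure cultures, WT cells from mixed cultures, cancer cells from pure cultures and cancer cells from mixed cultures, each with 2 libraries. Mixed cultures began with 2 parts WT to 1 part cancer cells, and living cells were sorted by color on day 3. The RNA of each sorted pool was sequenced in bulk by CEL-Seq, which reads the 3′ ends of transcripts. The sources used here do not say whether libraries of a group came from separate animals or cultures, so p-values measure the spread between these libraries, which may be technical.

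Depth differed widely. The shallowest library, A02 (mixed WT), held 73109 reads, the deepest, A04 (mixed cancer), held 4733121, and the other 6 held between 201137 and 1905693. Levels are given as normalized CPM, that is, reads scaled to a common library total (CPM) with TMM factors between libraries. A single read in library A02 was worth 13.1 normalized CPM. Epithelial markers had reads throughout: of 8 listed, 8 were seen in both libraries of each WT group and 7 in both libraries of each cancer group. Between cancer and WT cells none of the 8 was called in pure cultures. In mixed cultures the keratin genes Krt8 (log2 fold change -1.83, edgeR adjusted p = 0.00978) and Krt20 (-4.27, adjusted p = 0.0124) were lower in cancer cells, as they were over both cultures together with Cldn7. Their part in the p53 gene differences was not tested. Of 10 stromal and endothelial markers 3 are in the table and none had enough reads for a test. Of 8 immune markers only Cd68 is in the table, at 0 to 2.27 normalized CPM in WT libraries, at 0 and 68.8 in pure cancer libraries and at 11.0 and 25.9 in mixed cancer libraries. Its part in the differences between WT and cancer cells was not tested. In bulk RNA, fewer cells with a transcript and less of it per cell cannot be told apart.

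p53 is held at a low level in healthy epithelium by MDM2, which marks it for degradation. Damage and other stress release it, and it then binds DNA as a tetramer and switches on genes for arrest of the cell cycle, DNA repair and cell death. The R172H change lies in the DNA-binding domain of the mouse protein and leaves a stable protein with little of the normal binding.

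Against WT cells, the cancer cells of mixed cultures had lower transcript levels of 4 of the 9 tested p53 genes. These were 9030617O03Rik, a mitochondrial enzyme gene, Ccng1 and Cdkn1a, which act on the cell cycle, and Perp, a gene of cell junctions and cell death. Lower calls made up 4.41% of all tested genes in that comparison (edgeR, adjusted p under 0.05). In pure cultures Trp53 itself was the 1 tested p53 gene called, lower in cancer cells, where 4.84% of all tested genes were called lower. Averaged over both cultures, 4 genes were lower in cancer cells, namely 9030617O03Rik, Cdkn1a, Ccng1 and Trp53, against 7.37% of all tested genes. None of the 9 was called higher in cancer cells by edgeR on read counts, where 5.11% of all tested genes were in pure cultures, 2.01% in mixed cultures and 6.8% over both. For mixing itself edgeR on read counts called none of them, in WT cells or in cancer cells.

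**Figure D1:**
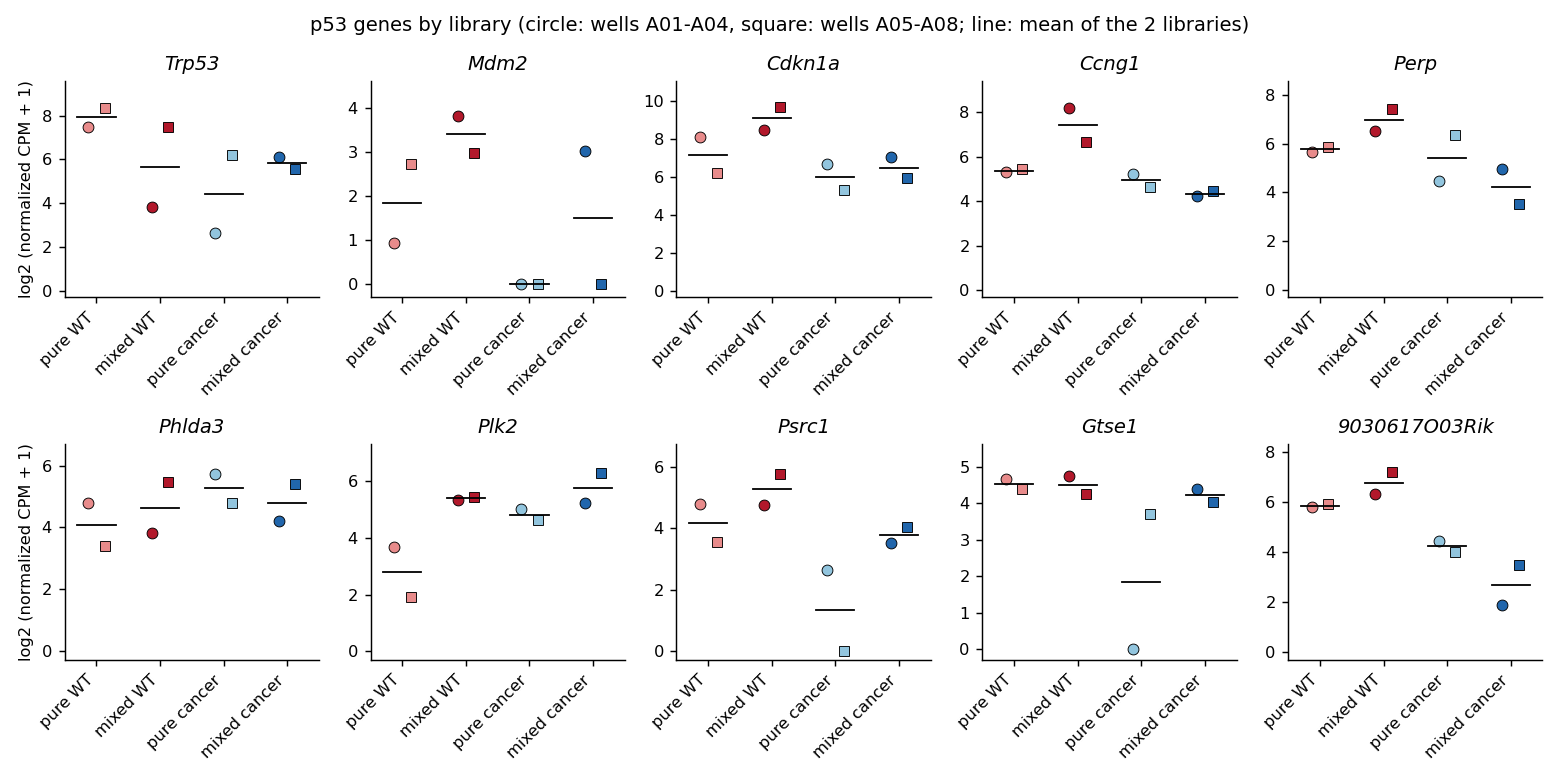
Each panel shows 1 gene, with log2 of normalized CPM plus 1 on the vertical axis and the 4 groups on the horizontal axis; each point is 1 library and the line is the mean of the 2 libraries of a group. The blue points of 9030617O03Rik and Ccng1 (cancer) all lie below the red ones (WT), and Mdm2 has no read in 3 of the 4 cancer libraries.

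Promoter sequences of the called target genes Cdkn1a, Ccng1 and 9030617O03Rik, and of Gtse1, which was not called, are shown first. They differ in whether they hold letters that match the known p53 binding motif. That motif is a pair of 10-base decamers. Windows of 300 bases (250 before and 50 after a RefSeq start, build GRCm38.p6) were found for 9 of the 10 genes, and for Perp there was none. The p53 decamer consensus, searched by name on both strands (it is its own reverse complement) without a mismatch, occurred in windows of 5 of the 9 genes (Trp53, Mdm2, Cdkn1a, Ccng1 and Gtse1) and in 9.55% of the 27025 genes with a window (8.36% of all 32851 windows). A pair of decamers end to end with at most 1 mismatch occurred in Cdkn1a, Ccng1 and Gtse1 and in 0.0814% of those genes (0.067% of all windows). The mismatch was not allowed at the fixed C or the fixed G of either decamer. Capitals mark the pair. The sequences of Cdkn1a, Ccng1 and 9030617O03Rik are the 250 bases before the start, and that of Gtse1 is a stretch of 30 bases around its pair, which reaches past the start.
Cdkn1a (chr17:29090729-29090978, plus strand): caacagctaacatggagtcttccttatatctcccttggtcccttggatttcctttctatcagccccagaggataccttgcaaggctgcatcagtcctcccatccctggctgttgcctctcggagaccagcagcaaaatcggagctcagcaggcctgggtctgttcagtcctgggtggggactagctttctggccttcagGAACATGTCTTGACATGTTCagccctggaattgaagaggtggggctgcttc
Ccng1 (chr11:40755287-40755536, minus strand): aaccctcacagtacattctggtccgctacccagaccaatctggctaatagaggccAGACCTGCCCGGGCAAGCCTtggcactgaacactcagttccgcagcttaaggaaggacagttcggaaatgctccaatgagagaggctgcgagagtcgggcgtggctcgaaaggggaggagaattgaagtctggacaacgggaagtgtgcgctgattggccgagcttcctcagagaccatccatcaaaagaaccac
9030617O03Rik (chr12:100778807-100779056, plus strand): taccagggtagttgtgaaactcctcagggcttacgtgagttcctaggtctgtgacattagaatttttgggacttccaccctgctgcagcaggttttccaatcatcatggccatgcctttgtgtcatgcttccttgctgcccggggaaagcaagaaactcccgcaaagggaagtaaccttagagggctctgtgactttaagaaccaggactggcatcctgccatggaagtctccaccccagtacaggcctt
Gtse1 (chr15:85859940-85859969, plus strand): accggGAGCAAGTTGGGGCTTGCCTctgac
In Cdkn1a the pair lies from -51 to -32 bases of the most upstream of its starts, and in Ccng1 from -195 to -176 bases of the start, where negative positions lie before the start. The window of 9030617O03Rik has no decamer without a mismatch, which says only that these letters are not in this window. The match is a description of sequence and was not tested as a binding site in these cells.

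Trp53 (chr11:69580359-69591873, plus strand, build GRCm38) is the gene altered in the cancer line. It stood at 178 and 324 normalized CPM in pure WT libraries A01 and A05, and at 13.1 and 174 in mixed WT libraries A02 and A06. In cancer cells it stood at 5.25 and 71.8 in pure libraries A03 and A07, and at 67.3 and 46.7 in mixed libraries A04 and A08. The pure WT libraries were above all others, although A06 came within a few CPM of A01, and the lowest values in mixed WT and in pure cancer rested on 1 read each. In pure cultures cancer cells had 5.91 times less Trp53 transcript than WT cells (log2 fold change -2.56, SE 0.77, edgeR adjusted p = 0.0323). Without pure WT library A05 the adjusted p was 0.253, without pure cancer library A03 it was 0.108, and with a minimum count of 50 it was 0.0530. In mixed cultures the log2 fold change was -0.93 with SE 0.74 (edgeR adjusted p = 0.604), and it turned to 2.23 without library A06, which left A02 and its single read to stand for mixed WT cells. Over both cultures the log2 fold change was -1.75 (SE 0.53, edgeR adjusted p = 0.0264), with adjusted p = 0.128 without A05 and 0.929 without A06. Trp53 transcript was still present in the cancer cells, with reads in all 4 libraries and 344 reads in the deepest, A04. Reads at the 3′ end do not tell the floxed from the R172H allele or from an unaltered one, and the labels do not say which exons the floxed allele loses, so the level of Trp53 checks neither allele.

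Mdm2 (chr10:117688875-117710758, minus strand), the ubiquitin ligase that p53 switches on and that in turn removes p53, had 51 reads in all. There were 1 and 10 reads in pure WT libraries, 1 and 3 in mixed WT libraries, none in both pure cancer libraries, and 36 and 0 in mixed cancer libraries. With no read among 543861, a pure cancer level of up to 5.52 CPM is possible, and the pooled pure WT level was 3.66 CPM with a 95% counting interval of 1.83 to 6.54. A loss of Mdm2 in pure cancer cells was therefore not detectable at this depth. Pooled over libraries, mixed cancer cells had 1.07 times the Mdm2 CPM of mixed WT cells (95% counting interval 0.385 to 4.15), and mixed WT cells had 1.86 times those of pure WT cells (0.432 to 6.28). These intervals cover counting error only, and PCR copies are not separate molecules.

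Cdkn1a (chr17:29090976-29100727, plus strand) encodes p21, the inhibitor of cyclin-dependent kinases through which p53 stops the cell cycle. Its level was 278 and 74.2 normalized CPM in pure WT libraries, 367 and 834 in mixed WT, 105 and 38.9 in pure cancer, and 133 and 62.2 in mixed cancer libraries. Both mixed WT libraries lay above all the others, and pure WT overlapped with both cancer groups. In mixed cultures p21 transcript was 5.95 times lower in cancer than in WT cells (log2 fold change -2.57, SE 0.63, edgeR adjusted p = 0.0115), and without library A06 the adjusted p was 0.172. In pure cultures the log2 fold change was -1.35 with SE 0.65 (edgeR adjusted p = 0.244), and it ran from -2.22 without pure cancer library A03 (adjusted p = 0.0378) to -0.16 without pure WT library A01 (adjusted p = 0.988). Over both cultures it was -1.96 (SE 0.45, edgeR adjusted p = 0.00307), and this call held with each of the 8 libraries left out in turn, with adjusted p up to 0.0232.

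Ccng1 (chr11:40748552-40755311, minus strand) encodes cyclin G1, a p53 target that takes part in the feedback on MDM2. Its level was 38.4 and 42.7 normalized CPM in pure WT libraries, 288 and 99.7 in mixed WT, 36.7 and 23.9 in pure cancer, and 17.6 and 20.7 in mixed cancer libraries. The WT and cancer libraries did not overlap, but the pure groups nearly met, at 38.4 in WT library A01 and 36.7 in cancer library A03. In mixed cultures Ccng1 was 9.70 times lower in cancer cells (log2 fold change -3.28, SE 0.75, edgeR adjusted p = 0.00662). That adjusted p was 0.0520 without A02, where 22 reads carried the highest level, and 0.128 without A04. In pure cultures the log2 fold change was -0.46 (SE 0.72, edgeR adjusted p = 0.80). Over both cultures it was -1.87 (SE 0.51, edgeR adjusted p = 0.0134), and the call was lost without A02 (0.0521), A04 (0.0685) or A05 (0.0578).

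Perp (chr10:18845020-18857073, plus strand) encodes a membrane protein of desmosomes that p53 induces during cell death. Its level was 50.3 and 57.9 normalized CPM in pure WT libraries, 91.8 and 172 in mixed WT, 21 and 80.8 in pure cancer, and 30.3 and 10.4 in mixed cancer libraries. Mixed WT stood above the other groups, and the pure cancer libraries spanned the pure WT values on both sides. The levels rested on 7 reads in mixed WT library A02, 4 in pure cancer library A03 and 2 in mixed cancer library A08. In mixed cultures Perp was 5.75 times lower in cancer cells (log2 fold change -2.52, SE 0.72, edgeR adjusted p = 0.0352). Without A04, A05, A06 or A08 the adjusted p lay between 0.0566 and 0.285. In pure cultures the log2 fold change was -0.02 (SE 0.69, edgeR adjusted p = 0.993), and over both cultures -1.27 (SE 0.50, edgeR adjusted p = 0.0968). Over both cultures Perp was called from barcode counts (adjusted p = 0.00633) and from transcript counts (0.0151), and without A02 (0.0369) or A07 (0.018).

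Phlda3 (chr1:135766119-135769136, plus strand), whose product restrains the survival kinase AKT, did not pass in any comparison. Its libraries ran from 9.56 to 26.5 normalized CPM in pure WT, 13.1 to 43.0 in mixed WT, 26.9 to 52.5 in pure cancer and 17.4 to 41.5 in mixed cancer cells. Pure cancer libraries lay above pure WT ones by a small margin, with a log2 fold change of 1.12 (SE 0.86, edgeR adjusted p = 0.516), while in mixed cultures the ranges overlapped.

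A further 3 genes serve cell division. Plk2 (chr13:110395046-110400844, plus strand), a stress-induced polo-like kinase, stood at 11.9 and 2.81 normalized CPM in pure WT libraries, 39.3 and 43.0 in mixed WT, 31.5 and 23.9 in pure cancer, and 37.0 and 77.8 in mixed cancer libraries. The pure WT libraries were the lowest, the pure cancer libraries came next, and the mixed groups overlapped. The log2 fold change of cancer over WT was 1.95 in pure cultures (SE 0.92, edgeR adjusted p = 0.229) and 0.36 in mixed cultures (SE 0.87, edgeR adjusted p = 0.907). From transcript counts Plk2 was called higher in pure cancer cells (log2 fold change 2.61, edgeR adjusted p = 0.0341). Psrc1 (chr3:108383839-108388231, plus strand), which encodes a microtubule-binding protein of the spindle, stood at 26.5 and 10.7 in pure WT, 26.2 and 54.4 in mixed WT, 5.25 and 0 in pure cancer, and 10.4 and 15.6 in mixed cancer libraries. Pure cancer cells had a single Psrc1 read in all. Over both cultures Psrc1 had a log2 fold change of -2.53 (SE 0.87) and an edgeR adjusted p of 0.0554, just short of the threshold. From transcript counts its adjusted p was 0.0272, and without A01, A04, A05 or A07 it lay between 0.142 and 0.372. Gtse1 (chr15:85859745-85876573, plus strand), a gene of late cell cycle phases whose protein dampens p53, stood at 24.7 and 20.2 in pure WT, 26.2 and 18.1 in mixed WT, 0 and 12 in pure cancer, and 19.96 and 15.6 in mixed cancer libraries. Outside pure cancer cells its 6 libraries lay close together, but A02 held 2 reads, A06 held 8 and A08 held 3. Counts this low do not show a steady level. The log2 fold change of Gtse1 was -1.63 in pure cultures (SE 1.08, edgeR adjusted p = 0.436) and -0.13 in mixed cultures (SE 1.03, edgeR adjusted p = 0.977).

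The gene listed as 9030617O03Rik is named Dglucy in newer annotation (chr12:100779057-100896981, plus strand) and encodes D-glutamate cyclase, a mitochondrial enzyme that breaks down a D-amino acid. Of the 9 tested genes it had the largest log2 fold change between cancer and WT cells in mixed cultures and over both. Its level was 54.9 and 59.0 normalized CPM in pure WT libraries, 78.6 and 147 in mixed WT, 21 and 15.0 in pure cancer, and 2.74 and 10.4 in mixed cancer libraries. The 4 groups did not overlap with each other, and the order from high to low was mixed WT, pure WT, pure cancer and mixed cancer. Pure cancer libraries held 4 and 5 reads (1 and 2 barcodes), mixed cancer libraries 14 and 2 (7 and 1 barcodes), and mixed WT library A02 held 6. The order of the cancer groups therefore rested on few molecules. In mixed cultures it was 31.3 times lower in cancer cells (log2 fold change -4.97, SE 0.90, edgeR adjusted p = 0.000642). Without the deep library A04 the log2 fold change was -3.53 with adjusted p = 0.122. In pure cultures the log2 fold change was -1.70 (SE 0.78, edgeR adjusted p = 0.211), and the gene was called there from barcode counts (adjusted p = 0.0377) and from transcript counts (0.0477). Over both cultures it was -3.33 (SE 0.59, edgeR adjusted p = 0.000216), and the call held without each of the 8 libraries, with adjusted p up to 0.0107.

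**Figure D2:**
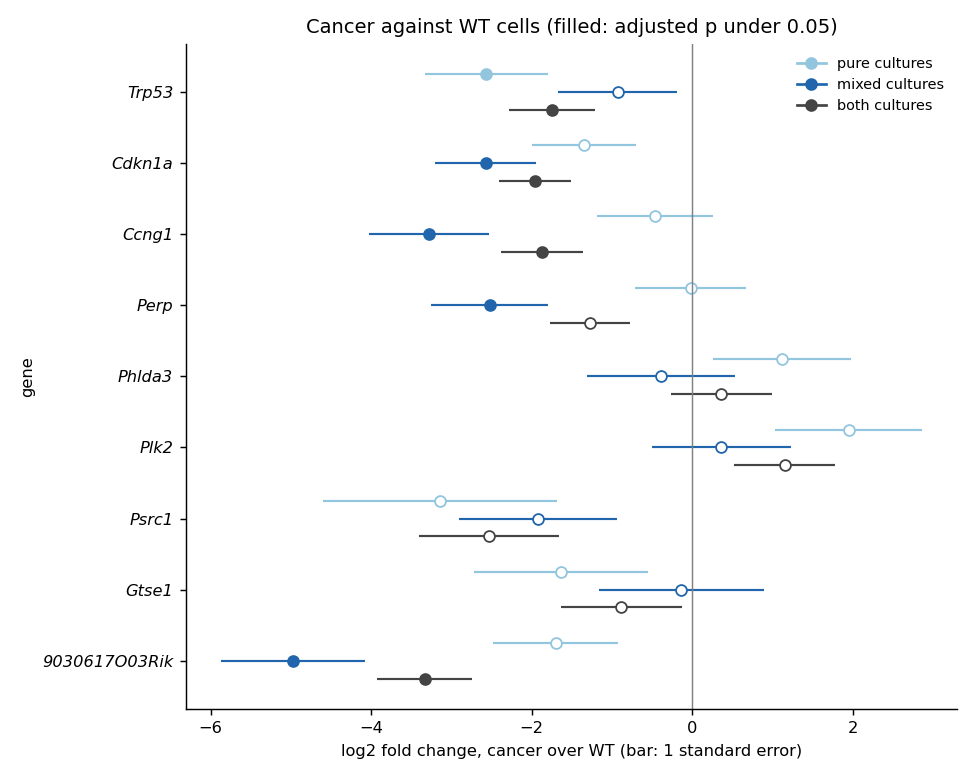
Points give the log2 fold change of cancer over WT cells (horizontal axis) for the 9 tested genes in pure, mixed and both cultures, bars give 1 standard error, and filled points have an adjusted p under 0.05. In mixed cultures 4 points are filled, from -4.97 for 9030617O03Rik to -2.52 for Perp, while in pure cultures only Trp53 is filled.

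Across the 9 tested genes, the median log2 fold change of cancer over WT cells was -1.35 in pure cultures, -1.92 in mixed cultures and -1.75 over both, where the median of all tested genes was -0.05, 0.12 and 0.04. Log2 fold changes lay below 0 for 7, 8 and 7 of the 9 genes, and for 52.1%, 44.97% and 47.6% of all tested genes. Ccng1 and 9030617O03Rik were the genes whose 4 cancer libraries all lay below all 4 WT libraries, a pattern that 8.11% of all tested genes showed. A gene entered the test through the groups in which it had reads, so these counts describe the 9 genes and leave out Mdm2.

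**Figure D3:**
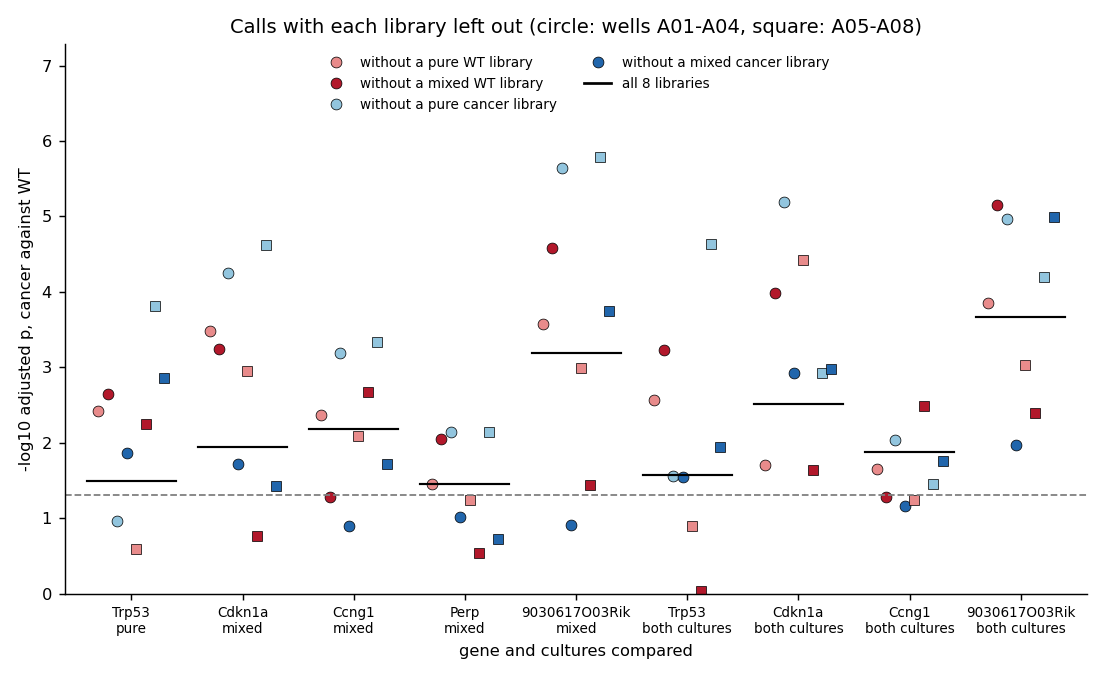
The vertical axis gives -log10 of the adjusted p of each cancer against WT call (gene and cultures on the horizontal axis), points show the value with 1 library left out, colored by the group of that library, black lines show the value with all 8 libraries, and the dashed line is an adjusted p of 0.05. Points fall below the dashed line for 7 of the 9 calls, and not for Cdkn1a and 9030617O03Rik over both cultures.

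The effect of mixing was asked separately in each cell type. In WT cells no p53 gene was called, where 0.741% of all tested genes were, and 3 of the 9 had an unadjusted p under 0.05 (edgeR), all higher in mixed WT, against 5% of all tested genes higher at that level. Ccng1 had a log2 fold change of 2.15 (SE 0.68, edgeR adjusted p = 0.185), and without A02 it was 1.25 (adjusted p = 0.589). Cdkn1a had one of 1.81 (SE 0.60, edgeR adjusted p = 0.234). Plk2 had one of 2.56 (SE 0.91, edgeR adjusted p = 0.284). For 5 of the 9 genes (Cdkn1a, Ccng1, Perp, Plk2 and 9030617O03Rik) both mixed WT libraries lay above both pure WT libraries, as did 15% of all tested genes. In that order, mixed WT library A02 held 28, 22, 7, 3 and 6 reads of them. Pure WT libraries held 13 and 5 reads of Plk2. On mixing in WT cells Trp53 ran the other way, with a log2 fold change of -1.15 (SE 0.71, edgeR adjusted p = 0.664).

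The WT result depended on how it was counted and fitted. DESeq2 called Ccng1 (log2 fold change 2.33, DESeq2 adjusted p = 0.0497) and 1.33% of all tested genes, and edgeR called Cdkn1a from barcode counts (log2 fold change 1.77, adjusted p = 0.00388), from transcript counts (2.04, adjusted p = 0.0157) and from a fit of only the 4 WT libraries (1.84, adjusted p = 0.0195). Cdkn1a was also called without A01, A02, A03 or A07, where its adjusted p lay between 0.0161 and 0.0473, while its log2 fold change was 0.98 without A06 (adjusted p = 0.497) and 1.17 without A05 (adjusted p = 1). The keratin gene Krt20, a marker of mature surface cells, also had higher values in mixed WT libraries (91.8 and 99.7 normalized CPM) than in pure WT libraries (24.7 and 6.74), with an edgeR adjusted p of 0.258. Of the 8 epithelial markers 7 had a log2 fold change above 0 on mixing in WT cells, as had 44.8% of all tested genes. Vil1 lay below 0 (-0.54, SE 0.57, edgeR adjusted p = 0.826). The 8 epithelial markers summed to between 6030 and 6694 normalized CPM in pure WT, 6174 and 16158 in mixed WT, 4755 and 6501 in pure cancer and 5965 and 6406 in mixed cancer libraries. Their part in the p53 gene values was not tested.

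In cancer cells none of the 9 genes was called for mixing, and 0 of the 5264 tested genes were called by edgeR or DESeq2 (0%). At an unadjusted p under 0.05 edgeR and DESeq2 each picked 1 of the 9, and edgeR picked 1.31% and DESeq2 1.03% of all tested genes. That gene was 9030617O03Rik, lower in mixed cancer cells with a log2 fold change of -2.21 (SE 0.98, edgeR adjusted p = 1), and without A04 it was -0.72. Trp53 had a log2 fold change of 0.49 (SE 0.78) and Cdkn1a one of 0.59 (SE 0.66), with an edgeR adjusted p of 1 for both.

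The difference between the mixing changes, WT minus cancer, was called for none of the 9 genes and for 0.076% of all tested genes. It was 3.27 for 9030617O03Rik (SE 1.18, unadjusted p = 0.011), 2.82 for Ccng1 (SE 1.03, unadjusted p = 0.012) and 2.51 for Perp (SE 0.99, unadjusted p = 0.0189) on the log2 scale, with edgeR adjusted p of 0.549, 0.549 and 0.56. With 1 library left out the difference was 1.79 for 9030617O03Rik (A04), 1.92 for Ccng1 (A02) and 1.03 for Perp (A07). At an unadjusted p under 0.05 these 3 passed, as did 7.28% of all tested genes. DESeq2 called none of the 9 after adjustment, against 0.228% of all tested genes, and picked 3 before adjustment, against 6.27%. For 9030617O03Rik and Ccng1 both mixed WT libraries lay above the pure WT ones and both mixed cancer libraries below the pure cancer ones, a pattern shown by 2.18% of all tested genes. The larger gap between WT and cancer cells in mixed than in pure cultures, seen in the calls for Ccng1, Cdkn1a, Perp and 9030617O03Rik, was therefore not shown by a test of the difference.

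**Figure D4:**
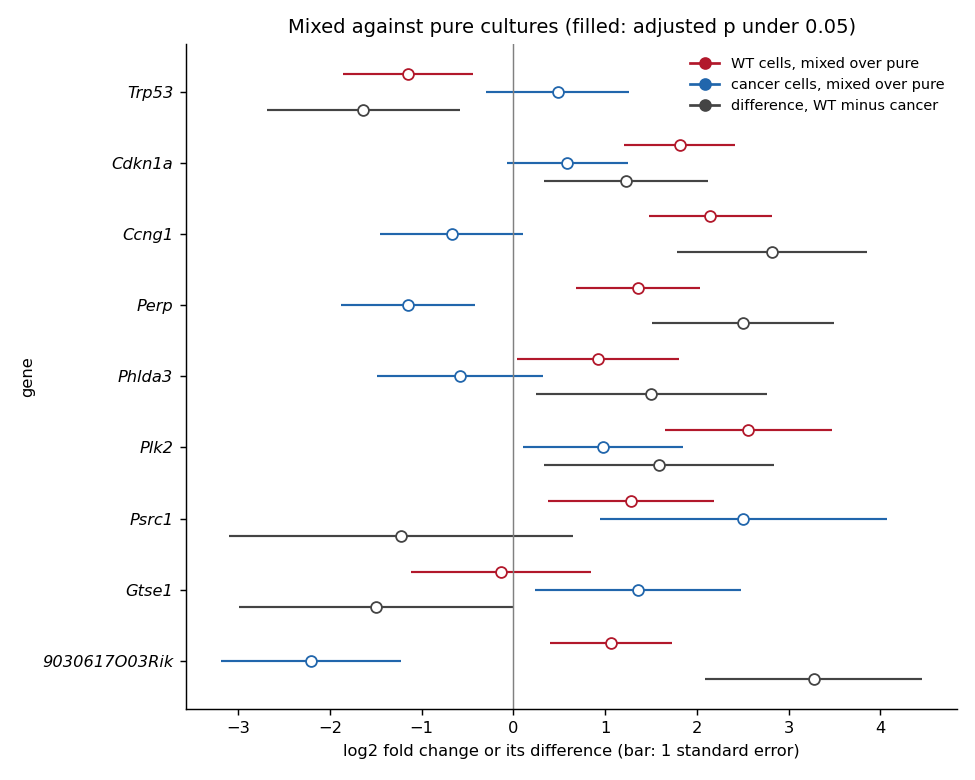
Points give the log2 fold change of mixed over pure cultures in WT and in cancer cells, and the difference between them (horizontal axis), for the 9 tested genes, with bars of 1 standard error; filled points would mark an adjusted p under 0.05. No point is filled, and WT changes run from -1.15 for Trp53 to 2.56 for Plk2.

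Other genes of the pathway were taken from lists of known regulators and targets. Of 22 listed p53 regulators 18 are in the table and 8 were tested. Cdkn2a, the locus of p16 and of p19ARF, which frees p53 by binding MDM2, was the 1 regulator called. It was called higher in cancer cells in pure cultures and over both, as were 5.11% and 6.8% of all tested genes. Its level was 6.41 and 1.69 normalized CPM in pure WT, 13.1 and 2.27 in mixed WT, 21 and 53.9 in pure cancer, and 73.8 and 51.9 in mixed cancer libraries. All cancer libraries lay above all WT libraries, but the mixed WT values rested on 1 read each. Pure WT libraries A01 and A05 held 7 and 3 reads, and pure cancer library A03 held 4. Cdkn2a had a log2 fold change of 3.33 in pure cultures (SE 0.95, edgeR adjusted p = 0.0240), 3.89 in mixed cultures (SE 1.2, edgeR adjusted p = 0.0604) and 3.61 over both (SE 0.77, edgeR adjusted p = 0.00141). Over both cultures the call held without each library, and in pure cultures the adjusted p lay between 0.0555 and 0.356 without A01, A04, A05 or A07. Reads do not separate the products of that locus here. Rpl5 and Rpl11, ribosomal proteins that also bind MDM2 and had the most reads among the regulators, had log2 fold changes over both cultures of 0.12 (SE 0.31, edgeR adjusted p = 0.868) and -0.19 (SE 0.26, edgeR adjusted p = 0.727).

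Of 12 listed targets that arrest the cell cycle 8 were tested, and 1 was called in pure cultures and over both. This was Gadd45g, a stress gene of the Gadd45 family, which was higher in cancer cells. Of all tested genes, 5.11% were called higher in pure cultures and 6.8% over both. Gadd45g stood at 9.15 and 1.69 normalized CPM in pure WT, 13.1 and 2.27 in mixed WT, 78.7 and 38.9 in pure cancer, and 46.2 and 25.9 in mixed cancer libraries. The cancer libraries lay above the WT ones, but the WT values rested on 10 and 3 reads in pure WT and on 1 read each in mixed WT. Gadd45g had a log2 fold change of 3.31 over both cultures (SE 0.78, edgeR adjusted p = 0.00394), with adjusted p = 0.0518 without A06. In pure cultures it was 3.48 (SE 0.95, edgeR adjusted p = 0.0180), with adjusted p = 0.0668 without A03 and 0.351 without A05. The arrest targets with the most reads were Pcna, the sliding clamp of DNA replication, and Sfn, which encodes 14-3-3 sigma. Pcna had a log2 fold change of 0.24 over both cultures (SE 0.40, edgeR adjusted p = 0.778) and Sfn one of -0.53 (SE 0.50, edgeR adjusted p = 0.584). None of the 5 tested apoptosis targets was called by edgeR or DESeq2 in any comparison, and at an unadjusted p under 0.05 each tool picked 1 of the 5 in pure cultures and 1 for mixing in WT cells. In pure cultures edgeR picked 20.5% and DESeq2 18.4% of all tested genes at that level, and the edgeR pick was Pmaip1, with a log2 fold change of 2.87 (SE 1.04, edgeR adjusted p = 0.0889). The edgeR pick for mixing in WT cells was Siva1, a gene of cell death and the best read of the 5. It stood at 133 and 150 normalized CPM in pure WT, 39.3 and 40.8 in mixed WT, 84.0 and 44.9 in pure cancer, and 85.7 and 72.6 in mixed cancer libraries. Both mixed WT libraries were below all the others, and the log2 fold change of Siva1 on mixing in WT cells was -1.81 (SE 0.64, edgeR adjusted p = 0.284). Ei24, a protein of the endoplasmic reticulum with the next most reads, had a log2 fold change of -0.65 over both cultures (SE 0.49, edgeR adjusted p = 0.478). The 1 tested target for DNA repair, Rps27l, a ribosomal protein gene, ranged from 731 to 1468 normalized CPM in WT and from 415 to 876 in cancer libraries. Rps27l had a log2 fold change of -0.85 over both cultures (SE 0.31, edgeR adjusted p = 0.0726), and DESeq2 called it there (adjusted p = 0.0484) and in mixed cultures (adjusted p = 0.0247).

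Of 20 listed targets in metabolism and stress reported here 12 were tested. Of those called over both cultures 1 was higher and 2 were lower in cancer cells, against 6.8% and 7.37% of all tested genes. Ephx1, an epoxide hydrolase that detoxifies, was lower in both kinds of culture. It stood at 172 and 166 normalized CPM in pure WT, 223 and 349 in mixed WT, 26.2 and 5.99 in pure cancer, and 19.96 and 20.7 in mixed cancer libraries. No WT library came near the cancer libraries, and Ephx1 had a log2 fold change of -3.71 over both cultures (SE 0.47, edgeR adjusted p = 2.78e-06). All 3 of its calls held without each library. Gdf15, a secreted stress factor, was read 25 and 4 times in pure WT, 8 and 26 times in mixed WT, never in pure cancer, and 24 times and 1 time in mixed cancer libraries. It was called lower in mixed cultures (log2 fold change -3.98, SE 1.17, edgeR adjusted p = 0.0412) and over both cultures (edgeR adjusted p = 0.0089). Without A01, A02, A04, A05 or A06 the adjusted p in mixed cultures lay between 0.0607 and 0.329, and over both cultures it was 0.175 without A01. Prkab1, a subunit of the energy sensor AMPK, was called higher over both cultures alone, with a log2 fold change of 1.66 (SE 0.52, edgeR adjusted p = 0.0300), and not without A01 (0.0831), A07 (0.0566) or A08 (0.066).

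None of the genes of these lists was called by edgeR for mixing in WT or in cancer cells. At an unadjusted p under 0.05 edgeR picked 2 of 8 arrest targets (Sfn and Plk3, both higher in mixed WT), 1 of 5 apoptosis targets (Siva1, lower) and 4 of 12 targets in metabolism and stress (Gpx1, Abhd4, Gdf15 and Tap1, all higher) in WT cells, against 9.67% of all tested genes, and none of the listed genes in cancer cells. DESeq2 called Gpx1, a peroxidase of oxidative defense, higher in mixed WT cells (log2 fold change 1.63, DESeq2 adjusted p = 0.0497). In WT cells 10 of the 12 targets in metabolism and stress had a log2 fold change above 0 (median 0.83), as had 44.8% of all tested genes.

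Cell division genes that p21 holds down through the DREAM repressor complex were tested for 15 of 20 listed genes, and none was called by edgeR or DESeq2 in any comparison. At an unadjusted p under 0.05 edgeR picked 5 of them and DESeq2 4 for cancer against WT in mixed cultures, and 3 and 2 for mixing in WT cells. The shares of all tested genes were 16.4% by edgeR and 15% by DESeq2 for the first and 9.67% and 8.55% for the second. With A02, A03, A07 or A08 left out, 18 or 16 were tested and 1 or 2 were called in these comparisons. In mixed cultures all 15 had a log2 fold change of cancer over WT above 0, with a median of 1.31, as had 55.0% of all tested genes. In pure cultures 8 of the 15 lay above 0, with a median of 0.26, as did 47.9% of all tested genes. In WT cells 14 of the 15 had a log2 fold change of mixed over pure below 0, with a median of -0.78, as had 54.9% of all tested genes. Cdk1, the kinase that drives entry into mitosis, had the most reads among them. It stood at 441 and 397 normalized CPM in pure WT, 236 and 217 in mixed WT, 698 and 314 in pure cancer, and 710 and 327 in mixed cancer libraries. Both mixed WT libraries were below all others, and Cdk1 had a log2 fold change of -0.90 on mixing in WT cells (SE 0.50, edgeR adjusted p = 0.61) and of 1.224 for cancer over WT in mixed cultures (SE 0.51, edgeR adjusted p = 0.198). Ube2c, a ubiquitin-conjugating enzyme of mitosis with the next most reads, had log2 fold changes of -0.78 (SE 0.47, edgeR adjusted p = 0.654) and 1.00 (SE 0.47, edgeR adjusted p = 0.289) in these comparisons. Without library A04, 10 of 16 DREAM genes then tested lay above 0 in cancer over WT of mixed cultures, with a median of 0.28. The share of all tested genes above 0 was then 47.3%. Without library A06, 11 of 16 lay below 0 on mixing in WT cells, with a median of -0.69. The other 5 of the 16 lay above 0, close to the 31.1% of all tested genes above 0. With library A02 left out instead, 17 of 18 lay below 0, with a median of -1.69, where 45.7% of all tested genes lay above 0.

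**Figure D5:**
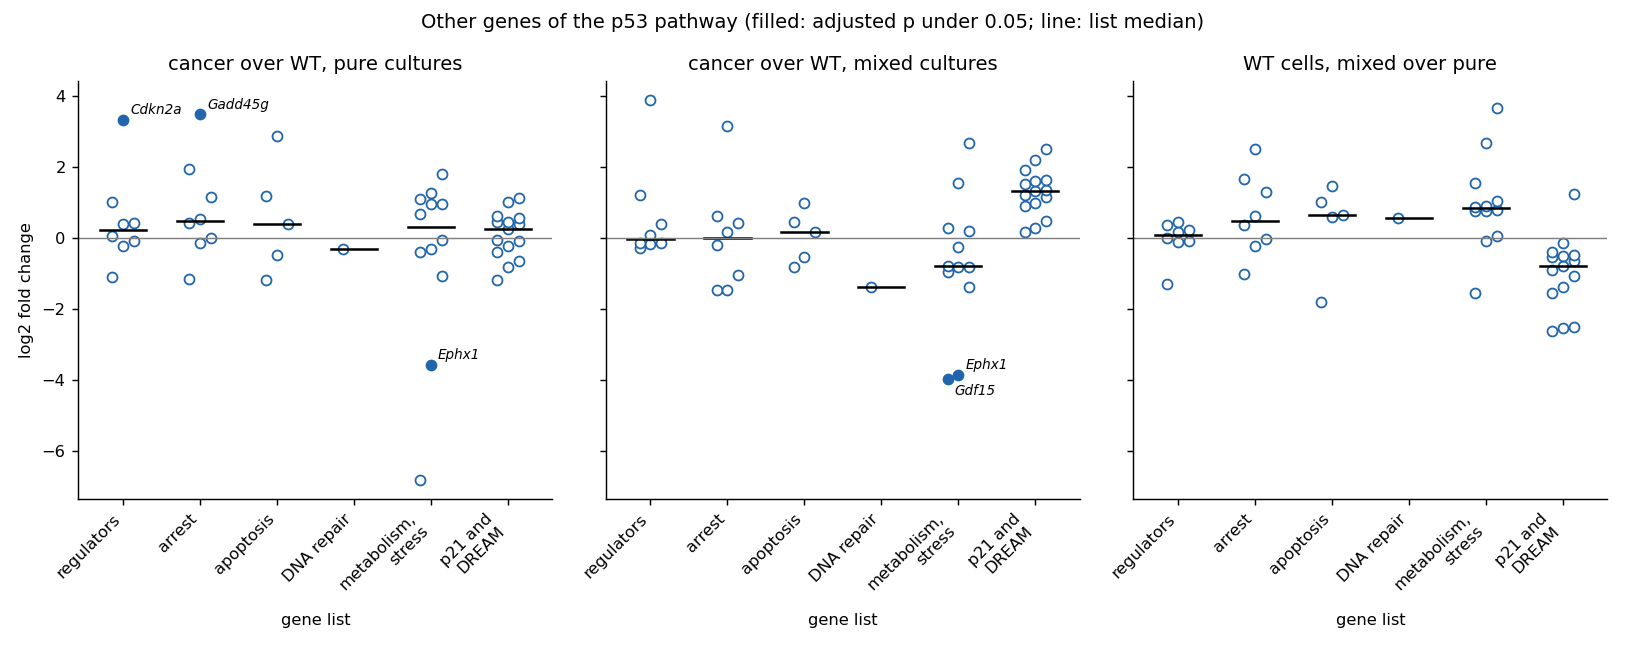
Each point is 1 tested gene of a list (horizontal axis) with its log2 fold change on the vertical axis, for cancer over WT in pure cultures, cancer over WT in mixed cultures and WT cells mixed over pure; lines are list medians and filled, named points have an adjusted p under 0.05. The DREAM list has all 15 points above 0 in the middle panel (55.0% of all tested genes) and 14 below 0 in the right panel (54.9% of all tested genes). The lowest point of the left panel is Gdf15, which had no read in pure cancer cells.

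Across the 8 libraries, the genes whose log2 CPM followed that of Trp53 most closely, among 3400 genes with a read in each library, included Tmbim6 (Pearson r 0.98), Wdr82 (0.95), Snx3 (0.94) and Tfap4 (0.93). Those closest to Cdkn1a were Prr15l (0.98), Metrnl (0.98), Itpk1 (0.95), Mall (0.94) and Gpt (0.93). No p53 gene was among either 5. Trp53 and Cdkn1a had r = 0.08 with each other, and among the p53 genes Psrc1 came closest to Cdkn1a (0.84), although Psrc1 has no read in 1 library, and Gtse1 closest to Trp53 (0.65). The 8 points come from 4 groups of unequal depth and share their libraries, so these values are descriptions.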

How the data were processed

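Bulk CEL-Seq RNA of 8 libraries (4 groups of 2) was analysed from the tables that the authors deposited. According to the study's methods, BWA placed the second read of each pair on RefSeq transcripts of mm10, reads with several equally good places were dropped, and featureCounts assigned the rest to genes. The tables that the authors deposited hold raw read counts for each gene, counts of distinct molecule barcodes, and estimated counts of transcripts that correct the barcode counts for molecules with the same barcode. Read counts include amplification copies. A further deposited table holds the authors' DESeq2 1.22.2 comparison of mixed and pure WT cells, with mean counts, log2 fold changes and p-values, and was not used. A spike-in entry and an eGFP entry, 2 in all with 1 read between them, were left out.

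Samples were grouped by their titles and named by well. Read counts were fitted with edgeR 4.0.16 in R 4.3.3 (filterByExpr at a minimum count of 10, TMM factors, quasi-likelihood test, all 8 libraries in a single fit), and a call meant an adjusted p under 0.05 (Benjamini-Hochberg over 5264 tested genes). Standard errors were computed as the size of the log2 fold change over the square root of F. Cancer cells were compared with WT cells in pure cultures, in mixed cultures and over both, mixed with pure cultures in WT and in cancer cells, and these mixing changes with each other. Comparisons that use the same libraries are not independent. A count of 0 was read as at most 3 reads. Alternatives were barcode or transcript counts (the latter rounded), median-of-ratios (RLE) factors, a minimum count of 50 or no filter, fitting the compared libraries alone, DESeq2 1.42.0, and each library left out in turn. The calls were tested on simulated data. Depth ran from 73109 to 4733121 reads, which limits genes of low level most in A02.

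The members and the gene lists were chosen with earlier results of these data known. Values are given for all 10 genes, for pathway genes that passed the threshold and otherwise for those with the most reads, and for the 5 genes closest to Trp53 and to Cdkn1a by Pearson r of log2 CPM (prior count 2) across libraries. A few genes that these rules would name are not reported here, and 1 of them was left out of its list and of the list's counts. Krt20 was named after its values were seen. Positions are from GENCODE vM21 on GRCm38 and promoter windows from RefSeq on GRCm38.p6. None of the last 500 bases of the 10 genes shared a stretch of 50 bases with another gene. The sources used here do not state whether counting used the strand.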

Additional observations from a re-analysis of the deposited data

Results flagged for a closer look

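For 2 p53 genes the mixed libraries lay above the pure ones in WT cells and below them in cancer cells. Both mixed WT libraries had more 9030617O03Rik than both pure WT libraries, and both mixed cancer libraries had less of it than both pure cancer libraries, with a difference of the log2 mixing changes (WT minus cancer) of 3.27 (SE 1.18, edgeR adjusted p = 0.549), and of 1.79 without library A04. Ccng1 showed the same pattern with a difference of 2.82 (SE 1.03, edgeR adjusted p = 0.549), and of 1.92 without library A02. The pattern was shown by 2.18% of all tested genes, and the difference did not pass the threshold for either gene. The mixed cancer level of 9030617O03Rik rested on 14 and 2 reads and that of Ccng1 on 90 and 4 reads. Their pure cancer levels rested on 4 and 5 reads for 9030617O03Rik and on 7 and 8 reads for Ccng1.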

How the results depend on the processing

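With a minimum count of 50, 1543 genes were tested and Trp53 and Cdkn1a were the only p53 genes among them. The p53 genes called were then 0 in pure cultures, 1 in mixed cultures and 2 over both cultures for cancer against WT, in place of 1, 4 and 4. Of all 1543 genes then tested 232, 151 and 314 were called, in place of 524, 338 and 746 of 5264. In pure cultures 2 were called from barcode counts (Trp53 and 9030617O03Rik) and 3 from transcript counts (the same 2 and Plk2, which was higher), and over both cultures 5 and 6. Psrc1 was not tested from barcode counts, and Gtse1 from neither. More of all tested genes were called there too. In pure cultures these were 620 of 4268 from barcode counts and 644 of 4233 from transcript counts. Over both cultures they were 684 and 785. For mixing in WT cells 1 was called from barcode counts, transcript counts, a fit of only the libraries compared and DESeq2, in place of 0. Of all tested genes 93 of 4268, 82 of 4233, 108 of 5738 and 70 of 5264 were called, in that order, in place of 39 of 5264. With a library left out, the number of p53 genes called moved for cancer against WT in pure, mixed and both cultures and for mixing in WT cells. The number of all tested genes called moved as well. The cause of these moves was not tested.

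Of 693 recomputed values 640 kept their direction and their side of the threshold, 16 lost a call, 20 gained one and 17 turned direction, none of these a called value. The log2 fold change of Perp in pure cultures was 0.064 with RLE factors and 0.049 with DESeq2, and that of Gtse1 for mixing in WT cells was 0.015 with DESeq2. With a library left out, cancer over WT ranged from -1.46 to 0.53 for Perp in pure cultures, and in mixed cultures from -1.54 to 2.23 for Trp53, -0.91 to 1.01 for Phlda3, -0.14 to 0.86 for Plk2 and -0.10 to 0.046 for Gtse1. For mixing in WT cells Phlda3 ranged from -0.52 to 1.76. For mixing in cancer cells Trp53 ranged from -0.26 to 3.56, Cdkn1a from -0.12 to 1.43, Perp from -2.34 to 0.30 and Phlda3 from -1.06 to 0.13. The difference of the mixing changes of Psrc1 ranged from -5.66 to 0.069.

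No paired analysis was possible because the labels give wells and no replicate numbers shared between groups, and a block by the order of the wells would not come from the labels. Where a group was left with 1 library, that library was assumed to vary like the other groups. Depth limits Mdm2, Psrc1 and Gtse1 in pure cancer cells, where they had 0, 1 and 4 reads. It also limits Gtse1 in libraries A02 and A08, which held 2 and 3 reads of it.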
